A study of Mus musculus with 6 samples.

Results

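The genes examined here were 10 regulators of the cytoskeleton measured in mature CD4 single-positive (SP) thymocytes lacking the histone H3K27 demethylases Jmjd3 and Utx. They were 6 microtubule-associated proteins (*Map2*, *Map4*, *Mapt*, *Map1a*, *Map1b* and *Map7*), the profilins *Pfn1* and *Pfn2*, the tubulin-binding protein stathmin (*Stmn1*) and the actin-severing protein cofilin (*Cfl1*). Each was found in the array annotation by its symbol or an older alias, updated through RefSeq. The row with the highest mean over all 6 arrays stood for the gene, which gave 10 genes of 19752 measured. The set was selected on the dKO against wild-type log2 values themselves, with the differences between dKO and wild-type cells already known, so these are given as a description, without a test.

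RNA came from sorted Vα2hi CD24lo CD4 SP thymocytes of mice carrying the OT-II TCR transgene, on 3 dKO and 3 wild-type arrays. In dKO cells, Cre expressed under *Cd4* control deleted floxed *Jmjd3* (*Kdm6b*) and *Utx* (*Kdm6a*) alleles from the double-positive (DP) stage onwards, and the labels write this genotype as Jmd3f/f-utxf/f. Animals without Cre, carrying the same transgene, gave the wild-type samples. The deposited values were on the log2 scale after RMA, with array medians between 6.27 and 6.32 and first quartiles between 4.97 and 5.01. The labels call the arrays of a genotype biological replicates without saying that each came from its own mouse, nor do they give an age, so the tests measure the spread between these samples.

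Microtubules are hollow polymers of tubulin that grow and shrink at their ends. Proteins such as tau (*Mapt*), Map2 and Map4 bind along them through shared repeats and stabilize them, whereas stathmin holds free tubulin dimers and favours shrinkage. Actin filaments are built from monomers that profilins hand to formins and Ena/VASP proteins, and cofilin cuts old filaments and frees their subunits. In T-cells both networks reorganize during migration and at the contact with an antigen-presenting cell. Map2 and tau are best known from neurons, where they lie in dendrites and axons respectively.

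The members that differed most between genotypes, *Map2* and *Pfn2*, are shown by the sequence before their transcription start, with *Pfn1* beside them as the profilin that differed little. The lines give the 250 bases upstream of the RefSeq start in the build GRCm38.p6, read 5′ to 3′ on the strand of the gene, with each CpG dinucleotide in capitals. They lie at chr1:66175079-66175328 (plus strand) for *Map2*, chr3:57847758-57848007 (minus strand) for *Pfn2* and chr11:70654651-70654900 (minus strand) for *Pfn1*.
Map2: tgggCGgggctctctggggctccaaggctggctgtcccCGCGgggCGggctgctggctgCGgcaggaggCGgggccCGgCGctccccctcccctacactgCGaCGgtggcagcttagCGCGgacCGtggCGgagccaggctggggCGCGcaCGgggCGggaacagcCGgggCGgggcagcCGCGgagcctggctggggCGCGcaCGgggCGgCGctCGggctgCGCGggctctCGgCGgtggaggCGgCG
Pfn2: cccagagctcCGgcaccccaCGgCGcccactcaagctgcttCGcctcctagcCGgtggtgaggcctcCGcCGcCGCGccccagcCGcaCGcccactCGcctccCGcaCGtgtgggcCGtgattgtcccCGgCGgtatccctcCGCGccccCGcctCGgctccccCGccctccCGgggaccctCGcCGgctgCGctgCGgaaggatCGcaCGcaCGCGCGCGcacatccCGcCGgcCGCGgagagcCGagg
Pfn1: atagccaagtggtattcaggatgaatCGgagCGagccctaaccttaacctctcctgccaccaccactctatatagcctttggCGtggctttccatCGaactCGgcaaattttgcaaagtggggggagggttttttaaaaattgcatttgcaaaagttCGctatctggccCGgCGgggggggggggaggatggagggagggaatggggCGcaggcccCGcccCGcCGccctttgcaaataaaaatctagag
These stretches held 34 CpGs in *Map2* and 38 in *Pfn2*, against 12 in *Pfn1*. Over the whole 300-base window, which also takes in 50 bases after the start, the counts were 37, 45 and 14, and windows with at least as many CpGs made up 5.58%, 1.93% and 36.3% of all 32851 promoter windows. The median window held 7. The dinucleotide CG reads the same on both strands, and its count describes the sequence only.

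Among the other members, *Map7* had 55 CpGs in its window, the first of the pair of *Map4* windows had 42, *Map1a* 27, *Map1b* 23 and *Cfl1* 22. The second *Map4* window, at an alternative start, had 5. RefSeq windows were found for 8 of the 10 genes, those other than *Mapt* and *Stmn1*.

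*Map2* was 5.02-fold higher in dKO than in wild-type thymocytes, the largest increase of all 19752 genes. Its log2 values were 5.35, 5.47 and 5.52 on the wild-type arrays and 7.79, 7.73 and 7.80 on the dKO arrays. Every dKO value therefore lay at least 2.21 above every wild-type value, a gap far wider than the spread within either genotype. The mean went from 5.45 ± 0.09 to 7.78 ± 0.04 (SD, n = 3 each), a log2 difference of 2.33 (standard error 0.06). In wild-type cells *Map2* lay below the median of the arrays, where background weighs on the values, so the measured fold may understate the difference. Leaving out any single array, or normalizing again, kept *Map2* in the first place, at a fold between 4.85 and 5.15.

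The microtubule-associated proteins closest to Map2 in structure had no difference of that size. *Map4*, the member of this family found in most cell types, had log2 values of 9.30, 9.38 and 9.37 in wild-type and 9.36, 9.41 and 9.43 in dKO cells. These groups overlapped, and the log2 difference was 0.05 (standard error 0.05). *Map4* also had a second, dimmer row, annotated by 1 accession instead of 13. This row went from 6.52 ± 0.08 to 6.32 ± 0.03 (SD, n = 3 each), a log2 difference of -0.20 (standard error 0.05), so the rows of *Map4* did not move alike. *Mapt*, which encodes tau, had values of 5.78, 5.70 and 5.74 in wild-type and 5.66, 5.71 and 5.76 in dKO cells, again overlapping, at a log2 difference of -0.03 (standard error 0.05).

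*Map1a* and *Map1b* encode large microtubule-associated proteins, best known from neurons, that lack the repeats of tau. *Map1a* had a log2 difference of -0.06 (standard error 0.05), and its wild-type values (5.43 to 5.47) cleared the dKO values (5.35 to 5.42) by only 0.00932. *Map1b* was the most variable member, with wild-type values of 5.53, 5.50 and 5.83 and dKO values of 5.23, 5.54 and 5.47. Its groups overlapped, and the log2 difference of -0.21 (standard error 0.10) shrank to -0.10 without wild-type replicate 3, the highest array, and to -0.12 without dKO replicate 1, the lowest. *Mapt*, *Map1a* and *Map1b* all lay below the array medians in both genotypes, so a difference in these dim genes could be missed.

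*Map7*, encoding a microtubule-associated protein that recruits the motor kinesin-1, was 1.28-fold higher in dKO cells. Its log2 values were 7.27, 7.10 and 7.19 in wild-type and 7.57, 7.46 and 7.58 in dKO cells. The groups stood 0.20 apart, and the log2 difference was 0.35 (standard error 0.06). It ranked 853rd among increases.

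**Figure D1:**
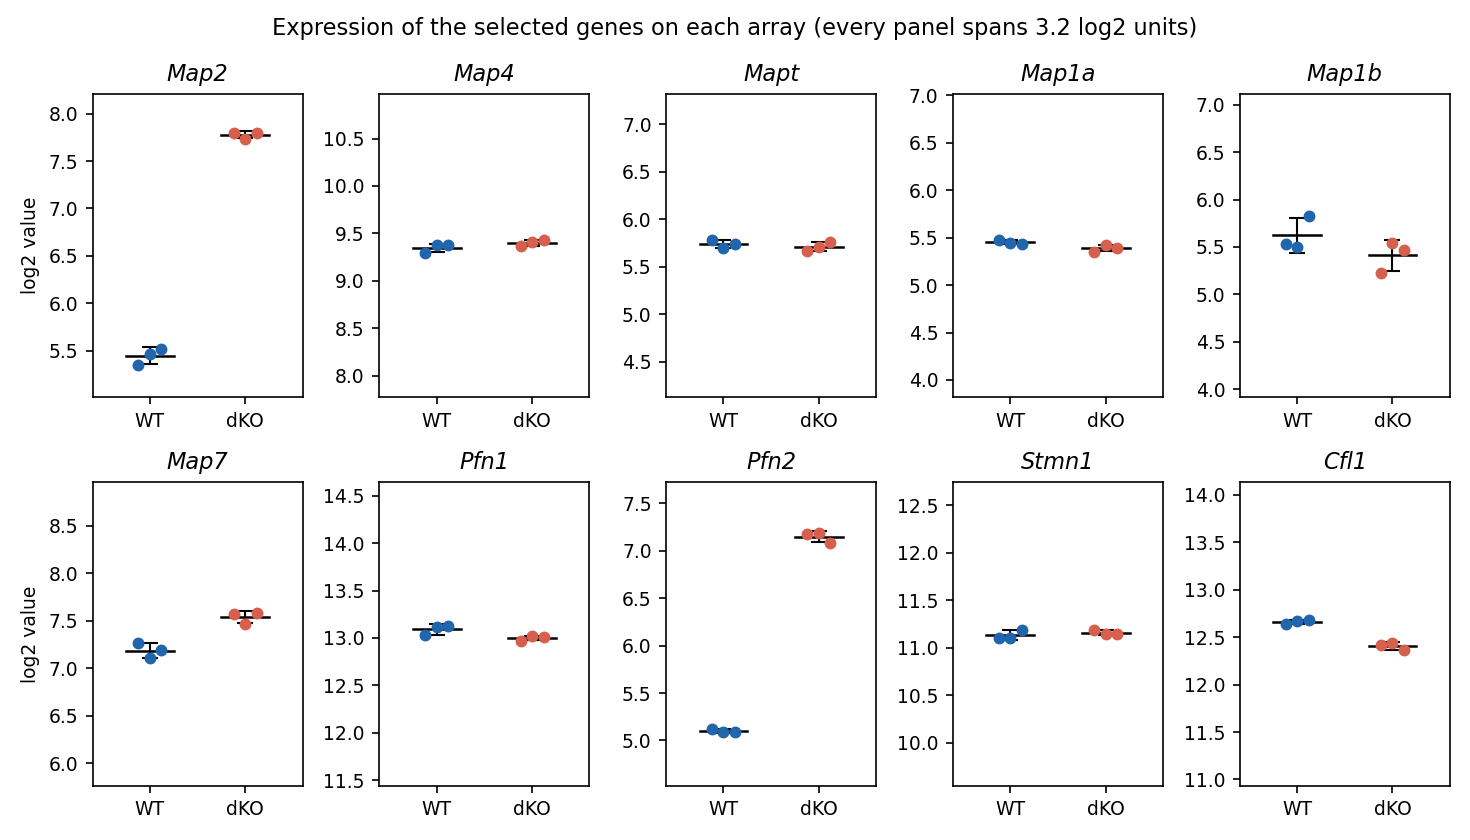
Log2 expression value (vertical axis) on each wild-type (WT, blue) and dKO (red) array for the 10 genes, 1 panel per gene. Points are arrays, the horizontal bar is the mean and the error bar the SD (n = 3), and every panel spans the same range of log2 units around its own level. *Map2* and *Pfn2* rise by 2.33 and 2.05, while no other panel moves by more than 0.35.

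The profilins differed from each other in the same manner. *Pfn2*, best known from the brain, was 4.13-fold higher in dKO cells, the third largest increase of all genes. Its log2 values were 5.12, 5.09 and 5.09 on the wild-type arrays, near their first quartile, and 7.18, 7.18 and 7.08 on the dKO arrays. The lowest dKO value lay 1.95 above the highest wild-type value, and the mean went from 5.10 ± 0.02 to 7.15 ± 0.06 (SD, n = 3 each), a log2 difference of 2.05 (standard error 0.05). With the wild-type values so near background, this fold too may be an underestimate.

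*Pfn1*, the profilin of most cell types, was among the brightest rows in both genotypes. Its log2 values were 13.03, 13.11 and 13.13 in wild-type and 12.97, 13.02 and 13.01 in dKO cells. The groups were parted by 0.01, and the log2 difference was -0.09 (standard error 0.05). Levels of different rows of an array cannot be compared, so whether *Pfn2* adds appreciably to the total of profilin transcripts was not measured.

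*Stmn1* and *Cfl1*, which act on free tubulin and on old actin filaments, differed less. *Stmn1* had log2 values of 11.11, 11.11 and 11.19 in wild-type and 11.19, 11.15 and 11.14 in dKO cells, overlapping, at a log2 difference of 0.03 (standard error 0.05). A second row annotated with the same 5 accessions gave 0.03 as well. *Cfl1* had values of 12.64, 12.67 and 12.68 in wild-type and 12.42, 12.44 and 12.36 in dKO cells. Each dKO array was lower than each wild-type array, by at least 0.19, and the log2 difference was -0.25 (standard error 0.05), or 1.19-fold lower.

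Among the 10 members, 4 passed an adjusted p of 0.05 in limma's fit over all genes (*Map2*, *Pfn2* and *Map7* higher, *Cfl1* lower), against 23.1% of all genes. The groups did not overlap in 6 of them, against 37.7% of all genes, and 2 were higher by 2-fold or more, against 0.223%, with 0 lower by as much, against 0.582%. Since these differences were in view when the genes were chosen, the counts describe the set only. The median log2 difference was -0.002 over the 10 members, 5 of which lay above zero and 5 below, and 0.01 over all genes. In sorted cells measured in bulk, more RNA per cell and more cells with the RNA cannot be told apart.

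**Figure D2:**
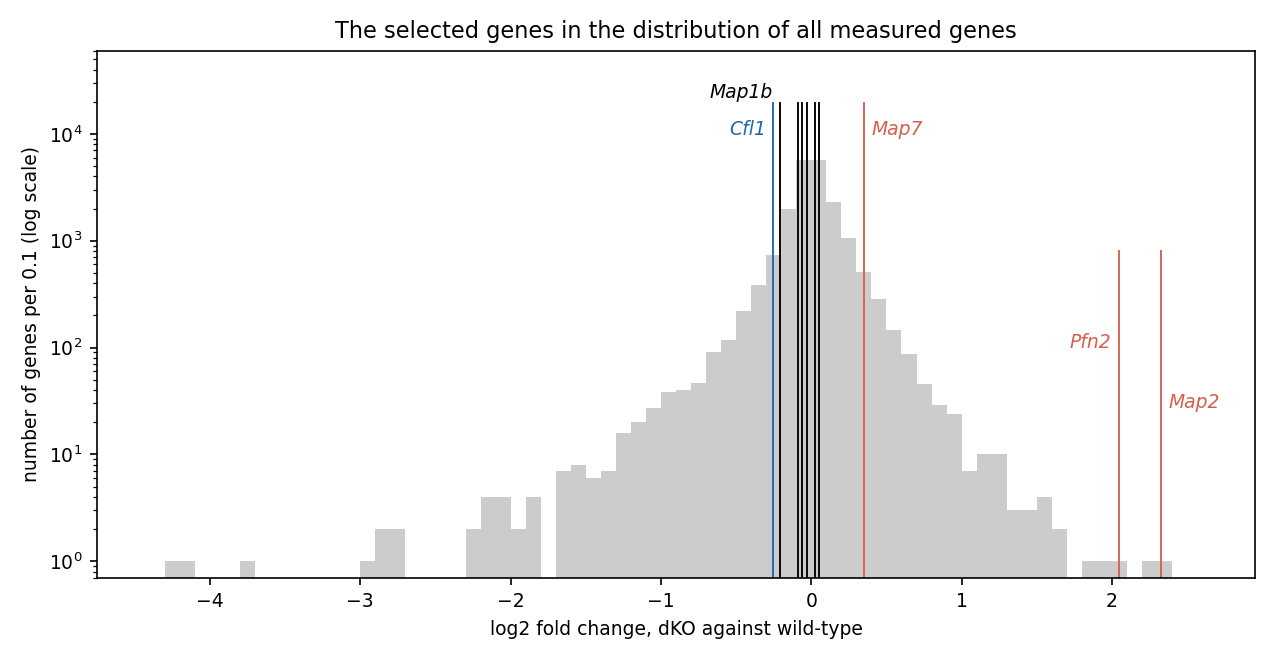
Number of genes (vertical axis, log scale) by log2 fold change in steps of 0.1 (horizontal axis) for all 19752 genes in grey, with the 10 members as vertical lines, red where higher, blue where lower and black where not past an adjusted p of 0.05. *Map2* at 2.33 and *Pfn2* at 2.05 stand at the right end, and 7 of the other members lie between -0.25 and 0.05.

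Checks of the cells touched some of these results. *Kdm6a* was lower, with log2 values of 10.16, 10.11 and 10.20 in wild-type and 9.48, 9.40 and 9.58 in dKO cells (log2 difference -0.67, adjusted p = 2.6e-05 from limma), and *Kdm6b* had a log2 difference of -0.09 (adjusted p = 0.32). The floxed exons encode the JmjC domain and the rest of the transcript may remain, so neither row measures the deletion itself. The 7 measured T-cell markers had mean log2 values of 10.62 to 13.06 in wild-type and 10.71 to 13.07 in dKO cells, and *Cd5* was lower by 0.43 and *Cd28* higher by 0.24 (adjusted p = 0.0023 and 0.0058; *Cd5* 0.068 with the methods' t-test).

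Since *Map2*, *Mapt*, *Map1a*, *Map1b* and *Pfn2* are known from neurons, 9 neural markers were examined beside them. None passed the test in limma's fit, against 23.1% of all genes (0 also at an unadjusted p under 0.05, and 0 by the methods' t-test). Their log2 values summed to 52.6 to 53.4 on wild-type and 52.8 to 53.1 on dKO arrays. *Snap25*, a synaptic vesicle fusion gene, had means of 5.41 and 5.38, and the neuronal splicing factor gene *Rbfox3* of 5.79 and 5.73. Of these markers only *Mbp*, a myelin gene, lay above the array median in both genotypes.

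Of 11 proliferation markers, 2 were lower in dKO cells (*Mki67*, log2 difference -0.62, and *Top2a*, -0.48) and 1 was higher (*Mcm5*, 0.27), while *Stmn1*, known to be abundant in dividing cells, had the small difference given above. Their log2 values summed to 77.2 to 79.5 on wild-type and 75 to 78.2 on dKO arrays. Of 7 markers of DP thymocytes, *Dntt* (1.52), *Cd8b1* (0.54) and *Cd1d1* (0.44) were higher and *Rag1* was lower (-0.55), with sums of 49.5 to 51.4 and 51.9 to 53.4. Over all genes, 23.1% were called in either direction. The calls on *Top2a* and *Rag1* were lost without wild-type replicate 1 (adjusted p = 0.13 and 0.11), wild-type replicate 2 (0.068 and 0.070), dKO replicate 2 (0.083 and 0.14) or dKO replicate 3 (0.14 and 0.15). Both calls were also lost with the methods' t-test (adjusted p = 0.26 and 0.27) and with trended and robust variance (0.092 and 0.12). Quantile renormalization (0.069 and 0.068) and cyclic loess (0.060 and 0.054) lost them as well. The *Rag1* values of the genotypes overlapped. The calls on *Mki67* and *Cd1d1* were lost with the methods' t-test (adjusted p = 0.13 and 0.063).

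Markers of other cells moved in both directions. The B-cell, myeloid, thymic epithelial and erythroid lists had 1 of 4, 2 of 6, 1 of 6 and 1 of 4 genes called, against 23.1% of all genes. *Cd79b*, of the B-cell receptor, was lower by 0.63 on the log2 scale, and the myeloid integrin gene *Itgam* by 0.78, or 1.72-fold (adjusted p = 1.2e-05 and 6.8e-05 from limma). *Lyz2*, encoding the lysozyme of myeloid cells, was 1.76-fold higher (adjusted p = 0.043), with log2 values of 5.35, 5.43 and 5.03 in wild-type and 6.75, 6.02 and 5.48 in dKO cells. The *Lyz2* call was lost without wild-type replicate 1, 2 or 3 (0.075, 0.067 and 0.13) and without dKO replicate 1 or 2 (0.076 and 0.097), and its log2 difference of 0.81 became 0.48 without dKO replicate 1. It was also lost with the methods' t-test (0.27) and with trended and robust variance (0.22). The epithelial adhesion gene *Epcam* was higher by 0.28 (adjusted p = 0.0020), and *Itga2b*, a platelet integrin gene, was lower by 0.31 (adjusted p = 0.0091; 0.10 with the methods' t-test). The sums of the log2 values in these lists, in which opposite moves cancel, were 21.1 to 21.6 against 20.6 to 20.8, 31.5 to 32.1 against 30.9 to 32.4, 34.6 to 35.1 against 35.3 to 35.4, and 21.6 to 22 against 21.6 to 21.7 in wild-type and dKO cells. The part of these differences in the values of *Map2* and *Pfn2* was not tested.

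The chromosomal surroundings of *Map2* and *Pfn2* were described through the 5 measured genes on each side. These neighbours were chosen after their values were seen, so their adjusted p are given as a description. Near *Map2*, 2 of 10 neighbours were higher in dKO cells and 1 was lower. *Acadl*, encoding a dehydrogenase of fatty acid oxidation, was 1.71-fold higher (log2 difference 0.78, standard error 0.06, adjusted p = 2.4e-05 from limma), and *Kansl1l* was 1.25-fold higher (adjusted p = 0.0032). *Idh1*, encoding cytosolic isocitrate dehydrogenase, was 1.40-fold lower (log2 difference -0.49, adjusted p = 0.0081). The genes next to *Map2* on either side, *Crygf* and *Unc80*, had log2 differences of 0.00 and -0.06.

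Near *Pfn2*, 2 of 10 neighbours were higher and 8 did not pass the test. *Rnf13*, the next measured gene on one side, encodes a ubiquitin ligase and was 1.35-fold higher (log2 difference 0.43, standard error 0.06, adjusted p = 5.4e-04 from limma), and *Commd2* was 1.39-fold higher (0.47, standard error 0.08, adjusted p = 0.0017). On the other side, *Tsc22d2* had a log2 difference of -0.07. Around all 10 members, 28 of 100 neighbours were called, 15 lower and 13 higher, against 23.1% of all genes. The neighbours that differed by 2-fold or more lay beside other members and were all lower. They were *Itgb3* near *Mapt* (log2 difference -1.85), *Map3k5* next to *Map7* (-1.63) and *Man1c1* near *Stmn1* (-1.23). The calls on *Idh1*, *Kansl1l* and *Commd2* were lost with the methods' t-test (adjusted p = 0.13, 0.053 and 0.065).

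**Figure D3:**
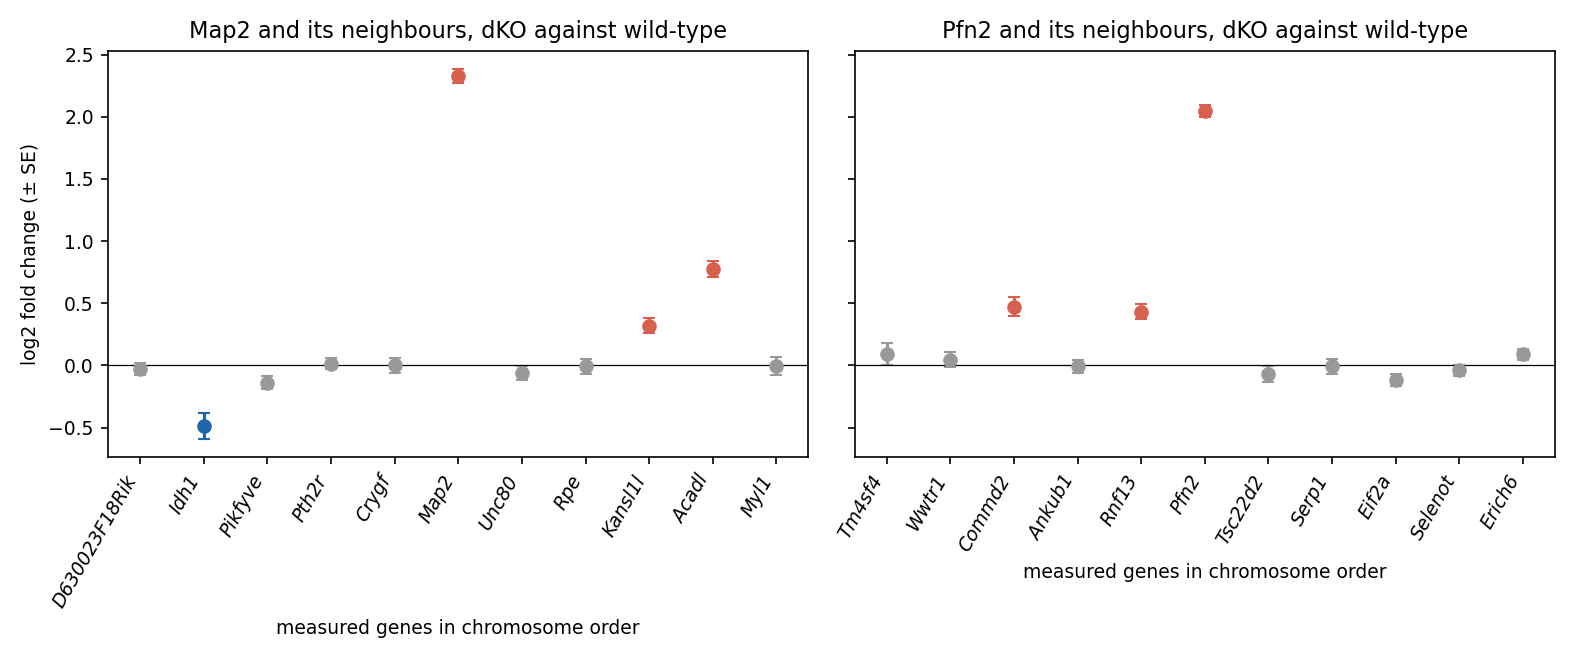
Log2 fold change with its standard error (vertical axis) of *Map2* (left) and *Pfn2* (right) and of the 5 measured genes on each side in chromosome order (horizontal axis), coloured by the test at an adjusted p of 0.05 (red higher, blue lower, grey not called). No neighbour in these panels reaches 1, the largest being *Acadl* at 0.78.

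The other genes of these networks were taken from 10 lists arranged by role, with 152 genes measured. At the same threshold 28 of these genes had lower and 19 had higher values in dKO cells (over all genes, 10.0% and 13.1%), and 105 did not pass. The shares over all genes include many dim rows. With only the brighter 50% of genes kept, 1887 of 9876 genes were lower and 2634 higher, and 36 list genes were lower and 21 higher. The counts therefore describe the lists only. Their median log2 difference was -0.04, against 0.01 over all genes. None approached *Map2* or *Pfn2*: the highest was *Ttl* at 0.65 and the lowest *Macf1* at -1.03.

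Among 17 other microtubule-associated proteins, 1 was lower and 1 was higher. *Dclk2*, a doublecortin-like kinase gene, had a log2 difference of -0.25 (adjusted p = 0.012; 0.052 without dKO replicate 2), and *Map7d3*, a relative of *Map7*, was 0.21 higher (adjusted p = 0.022). The *Map7d3* call was lost without wild-type replicate 1 or 2 (adjusted p = 0.055 and 0.078) and without dKO replicate 2 or 3 (0.088 and 0.069). With the methods' t-test no gene of this list was called (adjusted p = 0.087 for *Dclk2* and 0.10 for *Map7d3*). The remaining relatives *Map7d1*, *Map7d2* and *Map1s* had log2 differences of 0.03, -0.01 and 0.04 (adjusted p = 0.82, 0.89 and 0.63).

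Of 16 tubulin genes, 3 were higher and 2 were lower. *Tubb4a*, a β-tubulin gene known from the brain, was 1.52-fold higher, from 6.12 ± 0.08 to 6.73 ± 0.03 (SD, n = 3 each, adjusted p = 2.8e-05 from limma). *Tubb2b*, also known from neurons, went the other way and was 1.72-fold lower in dKO cells, going from 7.70 ± 0.13 to 6.92 ± 0.23 (adjusted p = 4.8e-04). The γ-tubulin genes *Tubg1* and *Tubg2*, which nucleate microtubules, were higher by 0.38 and 0.49 (adjusted p = 5.4e-04 and 0.0011; *Tubg2* 0.052 with the methods' t-test), and *Tuba4a* was lower by 0.28. *Tubb5* and *Tuba1a*, which encode common β- and α-tubulins, had log2 differences of 0.07 and 0.06 (adjusted p = 0.36 and 0.40), and *Tubb3*, a marker of neurons, of 0.07 (adjusted p = 0.56). Tubulin genes are alike in sequence, and the extent to which their probes share signal was not tested.

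Of 12 genes that destabilize or sever microtubules, 2 were higher, the kinesins *Kif2a* (0.21) and *Kif18a* (0.26). The *Kif2a* call (adjusted p = 0.027) was lost without wild-type replicate 2 or 3 (0.073 and 0.085) and dKO replicate 2 or 3 (0.070 and 0.083). That on *Kif18a* (0.035) was lost without wild-type replicate 1 or 3 (0.11 and 0.092) and dKO replicate 1 or 3 (0.12 and 0.058). With the methods' t-test neither was called (0.12 for *Kif2a* and 0.19 for *Kif18a*). The replicate number as a block also lost the *Kif18a* call (0.055). The stathmin relatives *Stmn2*, *Stmn3* and *Stmn4* had log2 differences of 0.01, 0.02 and -0.10, and did not pass (adjusted p = 0.94, 0.81 and 0.36).

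Of 14 plus-end binding proteins and spectraplakins, 2 were lower and 3 were higher. *Macf1*, encoding a giant linker between actin and microtubules, was 2.05-fold lower in dKO cells, going from 10.51 ± 0.03 to 9.48 ± 0.04 (SD, n = 3 each, adjusted p = 4.6e-07 from limma). The end-binding proteins diverged. *Mapre2* was 1.45-fold lower (adjusted p = 8.1e-04), *Mapre3* was 1.53-fold higher (adjusted p = 0.0016; 0.073 with the methods' t-test) and *Mapre1* had a log2 difference of -0.04 (adjusted p = 0.59). *Slain1* and *Ckap5*, which promote growth of microtubule ends, were higher by 0.23 and 0.20 (adjusted p = 0.0035 and 0.041). The call on *Ckap5* was lost without wild-type replicate 1, 2 or 3 (0.051, 0.11 and 0.11) and without dKO replicate 1 or 3 (0.088 and 0.12). The methods' t-test (0.15), cyclic loess (0.086), quantile renormalization (0.065) and a fit with the replicate number as a block (0.051) lost it too.

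Of 16 tubulin-modifying enzymes, 4 were higher and 3 were lower. *Ttl*, which puts the terminal tyrosine back on α-tubulin, was 1.57-fold higher, from 7.29 ± 0.06 to 7.94 ± 0.04 (SD, n = 3 each, adjusted p = 1.6e-05 from limma), and *Ttll1*, which encodes a subunit of a tubulin polyglutamylase, was 1.55-fold higher (adjusted p = 6.7e-05). *Agtpbp1*, a deglutamylase gene, was 1.25-fold lower (adjusted p = 0.0025). Of 12 kinases and phosphatases that act on tau or stathmin, 2 were lower and 2 were higher. *Camk4*, encoding a calcium-dependent kinase that phosphorylates stathmin in T-cells, was 1.41-fold lower (log2 difference -0.50, adjusted p = 2.4e-04), and *Ppp2r2a*, a regulatory subunit of a tau phosphatase, was 0.20 higher (adjusted p = 0.011). *Gsk3b* and *Cdk5*, both tau kinases, did not pass (adjusted p = 0.084 and 0.87). The other calls were those on the tau kinases *Mark3*, at -0.19 (adjusted p = 0.018), and *Mark4*, at 0.16 (adjusted p = 0.049). The *Mark4* call was lost in each of the 6 fits without 1 array other than that without dKO replicate 1 (adjusted p between 0.095 and 0.17), and that on *Mark3* without wild-type replicate 3, dKO replicate 1 or dKO replicate 2 (0.060, 0.051 and 0.070). The methods' t-test (0.11), cyclic loess (0.17) and quantile renormalization (0.11) lost the *Mark4* call too.

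**Figure D4:**
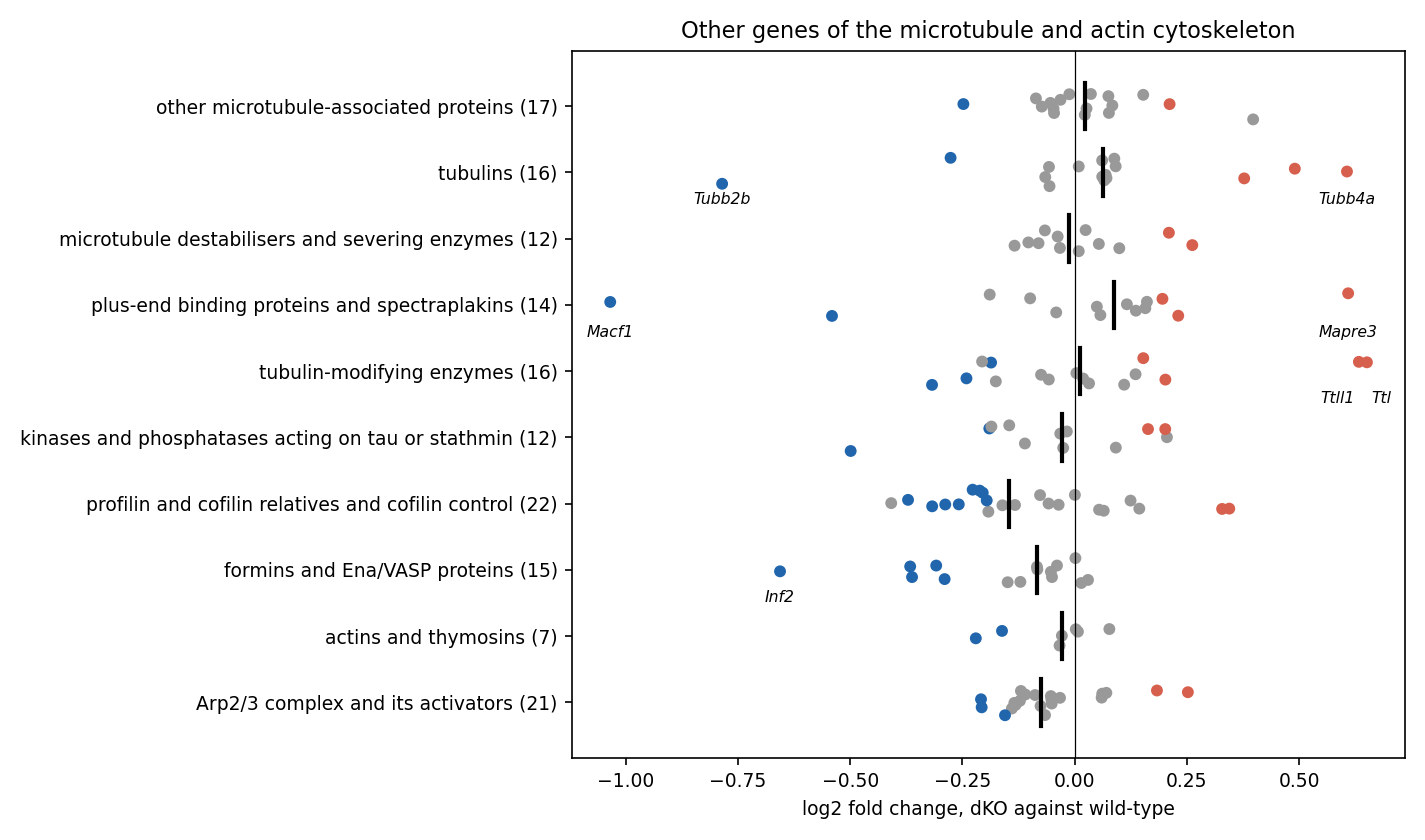
Each measured gene by its log2 fold change between genotypes (horizontal axis, dKO over wild-type), arranged in the rows of 10 lists (number of genes in brackets), coloured by the test at an adjusted p of 0.05 (red higher, blue lower, grey not called), with the median of each list as a black bar. Points are spread vertically for legibility and genes beyond 0.6 are named. The medians lie between -0.15 for relatives and regulators of profilin and cofilin and 0.09 for plus-end binding proteins.

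On the actin side, 8 of 22 relatives and regulators of profilin and cofilin were lower and 2 were higher. *Cfl2*, the muscle form of cofilin, fell by 0.21 (adjusted p = 0.0091 from limma), a decrease of similar size to that of *Cfl1*, whereas *Dstn*, the third gene of this family, was 0.33 higher, from 7.07 ± 0.06 to 7.40 ± 0.05 (SD, n = 3 each, adjusted p = 0.0012). *Limk1* and *Limk2*, LIM kinases that inactivate cofilin, were lower by 0.37 and 0.32 (adjusted p = 0.0014 and 0.0022). The kinase genes *Tesk2* and *Tesk1* of the same list went the other way, at 0.34 (adjusted p = 0.0029) and 0.14 (adjusted p = 0.070, not past the threshold). *Ssh1*, a phosphatase that activates cofilin, was lower by 0.26 (adjusted p = 0.0056). The profilin relatives *Pfn3* and *Pfn4* had log2 differences of -0.13 and 0.05 (adjusted p = 0.070 and 0.50).

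Of 15 formins and Ena/VASP proteins, to which profilins deliver actin, 5 were lower and 10 did not pass. *Inf2* was 1.58-fold lower in dKO cells, going from 6.91 ± 0.12 to 6.26 ± 0.18 (SD, n = 3 each, adjusted p = 5.9e-04 from limma). *Diaph1* and *Daam1*, also formins, were lower by 0.37 and 0.31 (adjusted p = 2.7e-04 and 0.0031), and the Ena/VASP genes *Evl* and *Vasp* by 0.36 and 0.29 (adjusted p = 2.5e-04 and 0.0023). Of 7 actins and thymosins, the monomer-binding *Tmsb4x* (-0.22, adjusted p = 0.0059) and *Tmsb10* (-0.16, adjusted p = 0.033) were lower, and *Actb* had a log2 difference of -0.03 (adjusted p = 0.67). The *Tmsb10* call was lost without any single one of the 6 arrays, wild-type or dKO, at an adjusted p between 0.050 and 0.10. It was also lost with the methods' t-test (0.053), quantile renormalization (0.099) and cyclic loess (0.0502).

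Of 21 genes of the Arp2/3 complex and its activators, which start branched filaments, 3 were lower and 2 were higher. The complex subunit *Arpc4* was lower by 0.21 (adjusted p = 0.012; 0.057 without wild-type replicate 2), as was *Brk1*, a subunit of the WAVE complex, by 0.16 (adjusted p = 0.034). The *Brk1* call was lost without wild-type replicate 1, 2 or 3 (0.10, 0.083 and 0.061) and without dKO replicate 1 or 2 (0.099 and 0.078). Quantile renormalization (0.056) and the replicate number as a block (0.060) lost it too. *Wasf2*, also of the WAVE complex, was lower by 0.21 (adjusted p = 0.024), a call lost without wild-type replicate 2 or 3 (0.073 and 0.063) and dKO replicate 1 or 2 (0.080 and 0.080). It was also lost with the methods' t-test (0.11) and quantile renormalization (0.054). *Nckap1*, of the same complex, was 0.25 higher (adjusted p = 0.011 from limma; 0.084 with the methods' t-test). *Arpc5l*, a subunit of Arp2/3, was 0.18 higher (adjusted p = 0.024), a call lost without wild-type replicate 1, 2 or 3 (0.056, 0.072 and 0.059) and without dKO replicate 1 (0.075). The methods' t-test (0.066), cyclic loess (0.069) and quantile renormalization (0.068) lost the *Arpc5l* call too.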

How the data were processed

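RNA from 3 wild-type and 3 dKO samples was hybridised to Affymetrix arrays, named Mouse Gene 1.0 ST in the methods and the platform annotation and Mouse Exon 1.0 ST in the series' design text. The authors deposited log2 values, and the submitters' notes name RMA and Partek, with versions not given in the sources used here. RMA corrects background on each array and quantile-normalizes across arrays, and background signal can make the folds of dim genes appear smaller. Depth does not apply to arrays, and the number of arrays limits the precision.

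Of 25254 rows, 21496 carried 1 symbol, 1565 several and 2193 none. Rows with 1 symbol were used, 21415 of them updated through RefSeq, and the row with the highest mean stood for a gene. Genotypes were compared with limma 3.58.1 (lmFit and eBayes, R 4.3.3) over all 19752 genes, with Benjamini-Hochberg adjustment at 0.05 and no filter. The test was checked on simulated data. Figures were drawn with matplotlib 3.10.9.

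The members, lists and tests were chosen with earlier results of these data known. Named genes were all members, their closest relatives and up to 4 genes of each list with the smallest p. Further genes, and the neighbours, were chosen after their values were seen, as were the alternatives run on them. Alternatives were renormalization (quantile, cyclic loess), filters keeping the brighter 75% or 50% of genes, the mean of a gene's rows, and trended and robust variance. Others were an unpaired two-tailed Student test (called the methods' t-test), a replicate block and leaving out each array. The authors' methods give that Student test for data other than microarrays and ChIPseq, and name Partek for the arrays. Array scan dates were not used here.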

Additional observations from a re-analysis of the deposited data

How the results depend on the processing

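The members were selected on this contrast, so their counts under other settings are a description. The 14 alternatives each called 4 members, other than the filter keeping the brighter 50% of genes, which left out *Pfn2*, *Mapt*, *Map1a* and *Map1b* and called 3. *Map2* ranged from 2.28 to 2.37 and *Pfn2* from 2.03 to 2.08 on the log2 scale when single arrays were left out. *Map4* moved to 0.01 with cyclic loess and to -0.08 with the mean of its rows.

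With the methods' t-test, 8 genes of the cytoskeletal lists were higher instead of 19, and over all genes 1173 were lower instead of 1976 and 1392 higher instead of 2587. Leaving out single arrays gave 22 to 32 lower and 14 to 16 higher list genes, 1496 to 1855 lower and 1901 to 2259 higher genes of all, and 4 members in each case. Cyclic loess gave 34 lower and 15 higher list genes. Of 35 list genes named by the rule and called, 22 kept their call under every alternative that tested them. The cause of these shifts was not tested. The replicate numbers were not taken to pair the samples, since correlations of deviations between same-numbered arrays were 0.02 to 0.10, although 5 of 6 arrays correlated best with their own number, a hint from the data and not the design, and a fit with the replicate number as a block called 4 members, 29 lower and 18 higher list genes, and 1970 lower and 2574 higher genes of all.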

Other observations

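Further gene families of the cytoskeleton were counted by their symbols after the other results were known. Some of their genes (*Kif2a*, *Kif2c*, *Kif18a* and *Dctn1*) are also in the lists above. Of 49 myosin genes, 6 were lower and 2 higher in dKO cells. *Myo10*, encoding an unconventional myosin of filopodia, had log2 values of 9.08, 9.06 and 9.03 in wild-type and 7.56, 7.52 and 7.60 in dKO cells, a log2 difference of -1.50 (adjusted p = 4.0e-08 from limma). *Myl4*, a myosin light chain gene, had a log2 difference of -0.99 (adjusted p = 2.7e-05). Of 4 tropomyosin genes, which encode proteins lying along actin filaments, *Tpm4* and *Tpm3* were lower, at -0.37 and -0.28 (adjusted p = 2.6e-04 and 0.0018).

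Of 40 genes with kinesin symbols, 7 were higher and 2 lower. The 7 include *Kifbp* (0.18, adjusted p = 0.020 from limma), which encodes a protein that binds kinesins and is not itself a motor. The largest difference was that of *Kif1b*, a motor gene of vesicle transport, with log2 values of 8.76, 9.06 and 9.38 in wild-type and 7.40, 8.20 and 8.53 in dKO cells (-1.02, adjusted p = 0.014 from limma). Its call was lost with trended and robust variance (0.13) and with the methods' t-test (0.18). The kinesin-2 motors *Kif3c* (0.40, adjusted p = 2.2e-04 from limma) and *Kif3a* (0.32, adjusted p = 0.0044; 0.067 with the methods' t-test) were higher. Of 18 dynein and dynactin genes, 3 were lower and 3 higher, with the light chain *Dynlt3* at 0.67 (adjusted p = 1.2e-05) and the light intermediate chain *Dync1li2* at -0.37 (adjusted p = 4.7e-04). Of 12 septin genes, 1 was lower (*Septin11*, -0.34, adjusted p = 0.0033; 0.062 with the methods' t-test) and 2 were higher, *Septin10* by 0.50 (adjusted p = 1.7e-04). The share of genes called was 22.5% for kinesins (with *Kifbp*), 33.3% for dynein and dynactin and 25% for septins. It was 50% for tropomyosins and 16.3% for myosins, against 23.1% of all genes.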
